A study of Mus musculus with 2 samples.

Results

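The granins *Chga*, *Chgb*, *Scg2*, *Scg3* and *Vgf*, 5 of the 31053 genes in the count matrices, were followed through the cell classes of neonatal mouse islets. They were chosen by symbol, and each symbol matched 1 gene. Islet cells came from female mice aged 2 weeks, 3 mice of 1 genotype being pooled for each suspension. One suspension was WT and the other *Npc1*-/- (labelled Npc1KO), a loss of *Npc1* in the whole body obtained by crossing heterozygous mice. Each genotype had 1 droplet library (10x Genomics, 3′ end), in which a unique molecular identifier (UMI) marks each captured molecule. Differences between genotypes therefore have no replicate check, no p-value is given, and all 95% intervals cover counting error only.

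Granins are acidic proteins of the regulated secretory pathway. They aggregate in the trans-Golgi network, help to form dense-core granules, and are cut by prohormone convertases into peptides that are released together with the hormone. In islets they are used as markers of endocrine cells in general. *Chga* encodes chromogranin A, the precursor of pancreastatin and vasostatins. *Chgb* encodes chromogranin B, *Scg2* secretogranin II, the precursor of secretoneurin, and *Scg3* secretogranin III, which binds chromogranin A and cholesterol-rich granule membrane. *Vgf* encodes a precursor of neuroendocrine peptides such as TLQP-21.

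The genes lie apart in the genome. In the GENCODE annotation of GRCm38, the build of the count matrices (mm10), *Scg2* (ENSMUSG00000050711) spans chr1:79434669-79440120 on the minus strand and *Chgb* (ENSMUSG00000027350) chr2:132781278-132795079 on the plus strand. *Vgf* (ENSMUSG00000037428) spans chr5:137026392-137033351 on the plus strand, *Scg3* (ENSMUSG00000032181) chr9:75643189-75684056 on the minus strand and *Chga* (ENSMUSG00000021194) chr12:102554969-102565028 on the plus strand. All are protein coding. Granin promoters are known for a cyclic AMP response element, whose full form reads TGACGTCA. RefSeq promoters (GRCm38.p6) were found for 4 of the 5 genes. Each held a TGACG core in the 250 bases before its start, and the 30 bases around it are shown because they are a sequence feature that these 4 genes share, with the core and the 3 bases after it in capitals, 5′ to 3′ on the strand of the gene.
Chga: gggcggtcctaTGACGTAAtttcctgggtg
Chgb: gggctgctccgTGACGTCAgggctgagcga
Scg2: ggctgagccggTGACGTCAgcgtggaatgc
Scg3: cgctgggtcgcTGACGCCAtcctcacgcct

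The windows are chr12:102554886-102554915 for *Chga*, chr2:132781559-132781588 for *Chgb*, chr1:79440076-79440105 for *Scg2* and chr9:75684068-75684097 for *Scg3*. The first capital stood 44, 72, 68 and 30 bases before the start of the RefSeq entry, respectively (positions -44, -72, -68 and -30). Except for *Scg3*, that start differs from the end of the GENCODE span given above, and the *Chgb* and *Scg2* windows lie inside those spans. TGACGTCA, which reads the same on both strands, was present in *Chgb* and *Scg2*. It occurred in the same 250 bases of 1.77% of the 27025 genes with a promoter entry. The looser TGACGTNA, searched on both strands and including every TGACGTCA, was present in *Chga*, *Chgb* and *Scg2* and in 2.92% of genes. The core TGACG, again on either strand and contained in both longer forms, was present in all 4 and in 19.8% of genes. These matches describe letters and not bound sites.

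Barcodes passed if they held over 1000 genes and less than 50000 UMIs, of which mitochondrial genes took below 10% and haemoglobin genes no more than 0.1%. This left 4628 of 8569 WT and 4269 of 7646 *Npc1*-/- barcodes. The kept cells held 94096566 and 94392651 UMIs, with medians of 18905 and 21381 per cell, and 3 barcodes were kept in both libraries. Over all kept cells *Npc1* itself, which encodes a lysosomal cholesterol exporter, had 790 UMIs in WT and 391 in *Npc1*-/-, or 8.40 and 4.14 counts per 1000000 UMIs (CPM). Classes were set by the hormone that took the most UMIs, if it took at least 10%. Insulin-leading cells numbered 1833 in WT and 1826 in *Npc1*-/-, glucagon-leading cells 1048 and 857, somatostatin-leading cells 189 and 141, and PP-leading cells (*Ppy* and *Pyy*) 411 and 442. Cells without a leading hormone but with at least 3 UMIs of *Fev* and *Slc18a1* numbered only 12 in WT and 100 in *Npc1*-/-, followed by 438 and 445 endothelial and 309 and 331 stellate cells. The other 388 WT and 127 *Npc1*-/- kept cells fell in no class and are not followed further. Summed, they held 1461 and 5778 CPM of *Chga* and 1110 and 3956 CPM of *Chgb*, though their median cell had 280 and 299 CPM of *Chga*.

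Markers other than the leading hormones were highest in the class of their name for most lists. Of 8 β cell markers 7 were highest in insulin-leading cells, of 8 α cell markers 6 in glucagon-leading cells, and of 7 δ cell markers 6 in somatostatin-leading cells, in both libraries. All 8 endothelial and all 8 stellate markers were highest in their classes, but the same lists had set these classes, so this is no separate check. Of 6 PP cell markers 4 in WT and 3 in *Npc1*-/- were highest in PP-leading cells, but *Ppy* and *Pyy*, which define the class, are among the 6. Of 7 enterochromaffin cell markers 3 and 5 were highest in *Fev*/*Slc18a1* cells, but *Fev* and *Slc18a1*, which define the class, are among the 7. In these cells 4 of the 7 had no UMI in WT and 1 had none in *Npc1*-/-. PP-leading cells were mixed: *Hhex*, a δ cell factor, had a UMI in 95.7% of the 140 WT and 93.2% of the 162 *Npc1*-/- PP-leading cells with over 2% *Sst* UMIs, and in only 3.69% and 3.21% of the other 271 and 280. In the *Fev*/*Slc18a1* cells *Ddc* stood at 407 and 287 CPM, but *Tph1*, which starts serotonin synthesis, at 0 and 1.82 CPM, so these cells are named here by the rule alone. A further difference ran through all classes. The 11 genes of the dissociation response, led by *Fos*, *Jun* and *Hspa1a*, summed to 870 CPM in WT and 286 CPM in *Npc1*-/- insulin-leading cells, and to 2391 and 1184 CPM in glucagon-leading cells. Their part in the granin values was not tested beyond leaving out the cells richest in them.

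Levels are given as UMIs of a granin per 1000000 UMIs of the class (CPM). Because the 3′ end was counted, values are not divided by gene length and describe molecules captured, which may differ in efficiency between genes. In the sum over a class, fewer cells and less RNA per cell cannot be told apart.

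*Chga* was captured in every endocrine class and was highest in the *Fev*/*Slc18a1* cells. It stood at 4548 CPM (4530 to 4566) in WT insulin-leading cells and at 3450 CPM in glucagon-leading, 2820 CPM in PP-leading and 1865 CPM in somatostatin-leading cells. The 12 WT *Fev*/*Slc18a1* cells had 21963 CPM (21231 to 22714), 4.83 times the insulin-leading level, or 2.13 times with hormone genes left out of the totals. In *Npc1*-/- the levels were 7373 CPM (7350 to 7395) in insulin-leading, 5154 CPM in PP-leading, 4490 CPM in glucagon-leading, 2866 CPM in somatostatin-leading and 29010 CPM in *Fev*/*Slc18a1* cells. By summed UMIs PP-leading and glucagon-leading cells thus changed places between the libraries. By the median cell they did not, with 3084 CPM in glucagon-leading and 2191 CPM in PP-leading cells of WT, and 3997 and 3309 CPM in *Npc1*-/-. No counting intervals of the summed levels of these 5 classes overlapped within a library. Endothelial cells held 212 and 158 CPM and stellate cells 196 and 216 CPM.

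*Chgb* had another order, with somatostatin-leading cells well above insulin-leading and glucagon-leading cells. WT values were 32915 CPM in *Fev*/*Slc18a1*, 3878 CPM in somatostatin-leading, 2053 CPM in PP-leading, 792 CPM in insulin-leading and 665 CPM in glucagon-leading cells. In *Npc1*-/- they were 36222, 3478, 2357, 969 and 928 CPM. The order of classes was thus the same in both libraries. Somatostatin-leading cells exceeded insulin-leading cells 4.90-fold in WT and 3.59-fold (3.51 to 3.67) in *Npc1*-/-, and *Fev*/*Slc18a1* cells exceeded them 41.6-fold and 37.4-fold. With hormone genes left out of the totals, the somatostatin-leading excess was 3.06-fold and 2.35-fold, and that of *Fev*/*Slc18a1* cells 18.3-fold and 17.7-fold.

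*Scg2*, unlike the chromogranins, was lower in the *Fev*/*Slc18a1* cells than in the other endocrine classes. It was highest in somatostatin-leading cells, with 3383 CPM in WT and 2871 in *Npc1*-/-. PP-leading cells had 2106 and 2005 CPM, insulin-leading cells 1735 and 1592 CPM, and glucagon-leading cells 773 and 765 CPM. The *Fev*/*Slc18a1* cells, so rich in both chromogranins, held 640.1 CPM (520.2 to 779) in WT and 585 CPM (548 to 623) in *Npc1*-/-, 0.371 and 0.367 times the insulin-leading level. In WT this interval overlapped that of glucagon-leading cells (760 to 786 CPM). Somatostatin-leading cells were 4.38-fold and 3.76-fold above glucagon-leading cells. With hormone genes left out, insulin-leading cells moved above PP-leading cells (4113 against 3640.0 CPM in WT, 3602 against 3350 in *Npc1*-/-).

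*Scg3* was the most even of the family. Its WT level ran from 537 CPM in insulin-leading through 558 CPM in somatostatin-leading, 604 CPM in PP-leading and 672 CPM in glucagon-leading to 937 CPM (791 to 1103) in *Fev*/*Slc18a1* cells, a span of 1.75-fold. In *Npc1*-/- it ran from 590.5 CPM in somatostatin-leading through 615, 629 and 673 CPM in glucagon-leading, insulin-leading and PP-leading cells to 1008 CPM. Insulin-leading and somatostatin-leading cells in WT, and somatostatin-leading, glucagon-leading and insulin-leading cells as neighbours in *Npc1*-/-, had overlapping counting intervals. The order also rested on the scale: with hormone genes left out of the totals, insulin-leading cells were highest in both libraries (1273 and 1423 CPM) and exceeded the *Fev*/*Slc18a1* cells.

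*Vgf* was a transcript of glucagon-leading cells. They held 124 CPM (119 to 130) in WT, from 2301 UMIs, and 96.5 CPM (91.9 to 101.3) in *Npc1*-/-, from 1657 UMIs. Insulin-leading cells held 3.70 CPM and 5.56 CPM from 203 and 301 UMIs, and PP-leading cells 4.05 and 8.02 CPM from 33 and 75 UMIs. Somatostatin-leading cells had 5 and 3 UMIs in all, and *Fev*/*Slc18a1* cells 5 and 5. Glucagon-leading exceeded insulin-leading cells 33.5-fold (29.1 to 39.0) in WT and 17.3-fold (15.3 to 19.7) in *Npc1*-/-. With each cell thinned to 5000 UMIs, 37.2% (34.2 to 40.3) of WT and 30.1% (27.0 to 33.3) of *Npc1*-/- glucagon-leading cells had a *Vgf* UMI, against 66.5% and 62.3% before thinning. The thinned share was 1.77% and 2.66% in insulin-leading cells. It was 0 of 391 and 0 of 413 in endothelial cells, which allows up to 0.767% and 0.726%.

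**Figure D1:**
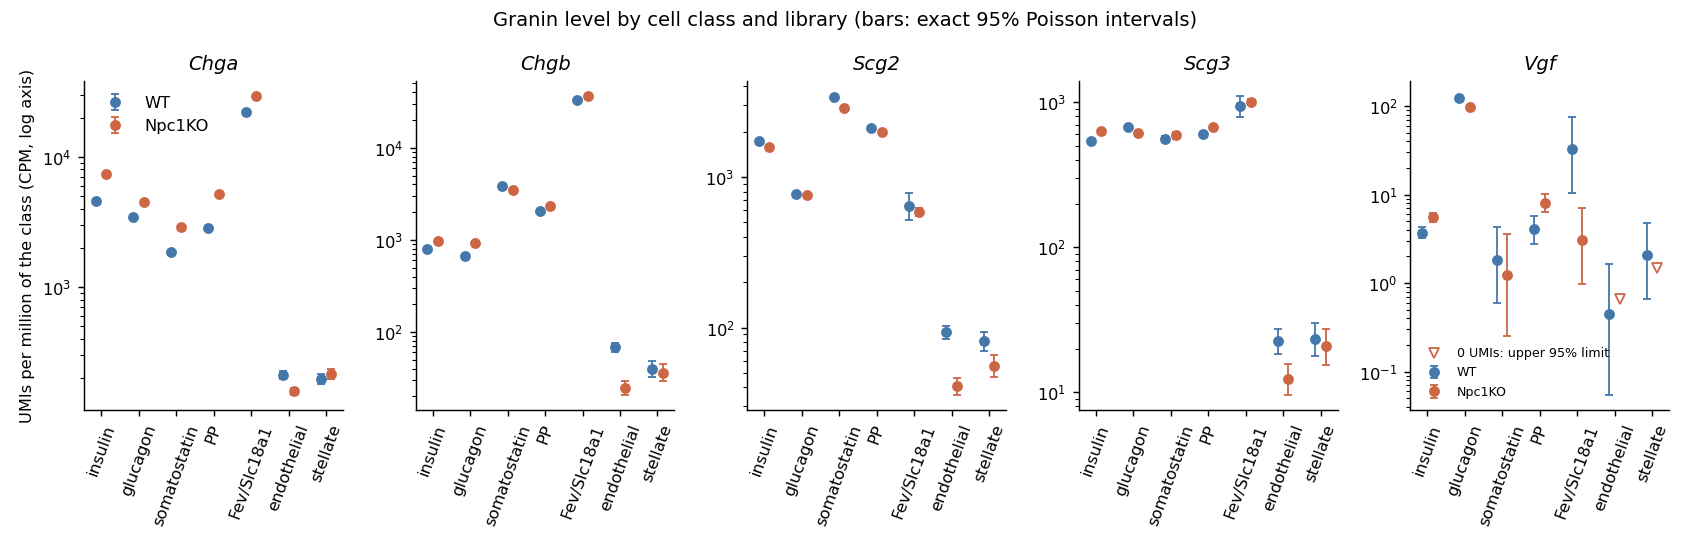
Level of each granin (UMIs per 1000000 UMIs of the class, log axis) in 7 cell classes of the WT (blue) and *Npc1*-/- (orange, labelled Npc1KO) library, with exact 95% Poisson intervals and open triangles for the upper limit where no UMI was counted. *Chga* and *Chgb* peak in *Fev*/*Slc18a1* cells, *Scg2* in somatostatin-leading cells and *Vgf* in glucagon-leading cells, while *Scg3* stays between 537 and 1008 CPM over the endocrine classes.

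Endothelial and stellate cells, which should lack granins, gave a background for these values. In them granin UMIs were still found, and *Chga* had one in 61.4% and 58.8% of endothelial cells thinned to 5000 UMIs (WT and *Npc1*-/-; median depth before thinning 7820 and 10372 UMIs), against 100% and 99.9% of insulin-leading cells (median 30417 and 30094). For *Chgb* the endothelial shares were 15.1% and 11.9%, for *Scg2* 32.0% and 20.6%, and for *Scg3* 9.46% and 8.47%. Per 1000 insulin UMIs, stellate cells carried 9.20 *Chga* UMIs in WT and 14.95 in *Npc1*-/-, next to 8.77 and 14.96 in insulin-leading cells. The higher *Chga* per insulin of the *Npc1*-/- library was thus also present in cells that do not make insulin. Endothelial cells, at 13.3 and 18.1, lay above the insulin-leading ratio. For *Vgf*, the *Gcg* UMIs found in insulin-leading cells would bring 73.0 *Vgf* UMIs in WT and 43.2 in *Npc1*-/- if both came at the ratio of glucagon-leading cells, and 203 and 301 were counted. In PP-leading cells the same reckoning gave 36.7 and 46.6 against 33 and 75 counted, so that the WT *Vgf* count there did not exceed what *Gcg* would bring.

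Among the UMIs of the 5 granins, each class had a blend of its own, and in every endocrine class *Chga* took a larger share in *Npc1*-/-. In insulin-leading cells it took 59.7% in WT and 69.8% in *Npc1*-/-, while *Scg2* took 22.8% and 15.1%. In glucagon-leading cells *Chga* took 60.7% and 65.1%. Somatostatin-leading cells were led by *Chgb*, with 40.0% and 35.5%, and their *Chga* share was 19.3% (18.8 to 19.7) and 29.2% (28.6 to 29.8). PP-leading cells passed from 37.2% to 50.5% *Chga*. In *Fev*/*Slc18a1* cells both chromogranins made up nearly all granin UMIs, *Chgb* taking 58.3% and 54.2% and *Chga* 38.9% and 43.4%. Together the granins took 0.762% and 1.06% of all UMIs in insulin-leading cells and 5.65% and 6.68% in *Fev*/*Slc18a1* cells. Cell by cell, the granin share of the latter ran from 2.10% to 13.4% with a median of 5.50% in WT, and from 0.699% to 14.9% with a median of 7.05% in *Npc1*-/-.

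**Figure D2:**
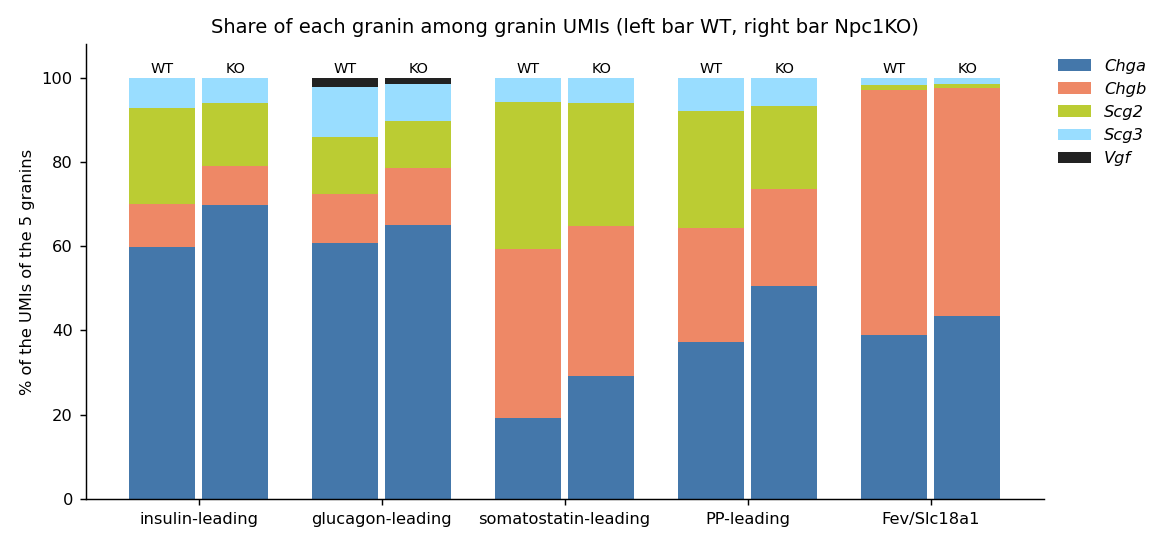
Share of each granin (percent of the UMIs of the 5 granins) in 5 endocrine classes, WT on the left and *Npc1*-/- (KO) on the right of each pair. The *Chga* part is larger in the right bar of every pair, for example 69.8% against 59.7% in insulin-leading cells, *Chgb* is the largest part in both bars of somatostatin-leading and of *Fev*/*Slc18a1* cells, and *Vgf* is visible in glucagon-leading cells.

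The comparison of genotypes asked which granins differed in *Npc1*-/- islet cells. *Chga* lay above the limit used here in each of the 4 hormone-leading classes. To set aside a shift common to all genes, each log2 ratio of *Npc1*-/- over WT is given relative to the median gene of the class, over genes that reached 5 CPM in WT or *Npc1*-/-. Genes are counted as above or below where this value passes 0.32 or -0.32. That median itself was 0.12 in insulin-leading cells and -0.15 in *Fev*/*Slc18a1* cells, and within 0.07 of 0 in the others.

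In insulin-leading cells the *Chga* ratio was 0.58 (0.57 to 0.58), from the levels of 4548 and 7373 CPM given above. Of 8858 genes tested there, 118 had a higher ratio, and 7.46% lay above the limit. *Chga* lay above that limit. *Vgf* did too, but at 3.70 and 5.56 CPM it reached 5 CPM only in *Npc1*-/-, so nothing is read from its call. Of the 32 genes that reached 1000 CPM in a library, only *Ppy* and *Pyy* exceeded *Chga*. The rise was broad, since 84.4% of *Npc1*-/- insulin-leading cells lay above the median WT cell, and the median cell had 4313 CPM in WT and 7064 CPM in *Npc1*-/-. In the other classes the *Chga* ratio was 0.35 (0.34 to 0.37) in glucagon-leading, 0.61 (0.56 to 0.66) in somatostatin-leading, 0.81 (0.79 to 0.83) in PP-leading and 0.55 (0.50 to 0.60) in *Fev*/*Slc18a1* cells. In the same order, 74.1%, 65.2%, 76.0% and 72% of *Npc1*-/- cells lay above the median WT cell. The median somatostatin-leading cell rose less than the summed level, from 1796 to 2165 CPM against 1865 to 2866 CPM. The share of all genes above the limit was 4.12%, 16%, 8.75% and 32.7% in these classes. In *Fev*/*Slc18a1* cells, with 12 WT cells, 2774 genes had a higher ratio than *Chga*, and nothing is read from the call there. Among genes that reached 1000 CPM, *Chga* had the highest ratio of 95 genes in somatostatin-leading and of 86 genes in PP-leading cells. It had the second highest of 105 in glucagon-leading cells. Of all genes tested, 616, 61 and 329 had a higher ratio in these classes, respectively. In PP-leading cells *Iapp*, *Gcg* and *Ins1* came next among the 86. There *Iapp* rose from 11367 CPM in WT to 18893 in *Npc1*-/- and *Gcg* from 11087 to 15457.5, while *Ttr* was level (1656 and 1652). What these differences bring to the *Chga* ratio of the class was not tested.

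The *Chga* difference was also present when cells were grouped by other measures. When insulin-leading cells were put in 4 bins by *Ppy* and *Pyy* share, *Chga* rose with the share in both libraries, from 3685 to 5764 CPM in WT and from 5569 to 8835 CPM in *Npc1*-/-. The highest bin ran from 1.56% to 27.0% of UMIs, so the cells of a bin were not all alike. Within the bins the ratio was 0.53, 0.57, 0.47 and 0.54. In 4 bins by total UMIs it was 0.51, 0.55, 0.60 and 0.64. In glucagon-leading cells the bins by total UMIs gave 0.29, 0.30, 0.30 and 0.36, and those by *Ppy* and *Pyy* 0.34, 0.22, 0.32 and 0.44, so that several lay under the limit. Leaving out cells with over 0.5% of UMIs in dissociation genes gave 0.58 for insulin-leading and 0.35 for glucagon-leading cells. That limit is well above the class sums of these genes (870 and 286 CPM in insulin-leading, 2391 and 1184 CPM in glucagon-leading cells). The step was not set to make the libraries alike in these genes, so their part in the ratio was not tested by it. PP-leading cells without much *Sst* had the larger difference, 2930 CPM in WT and 5988 CPM in *Npc1*-/- with a ratio of 0.94, against 2542 and 3414 CPM and a ratio of 0.45 in those with over 2% *Sst*.

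**Figure D3:**
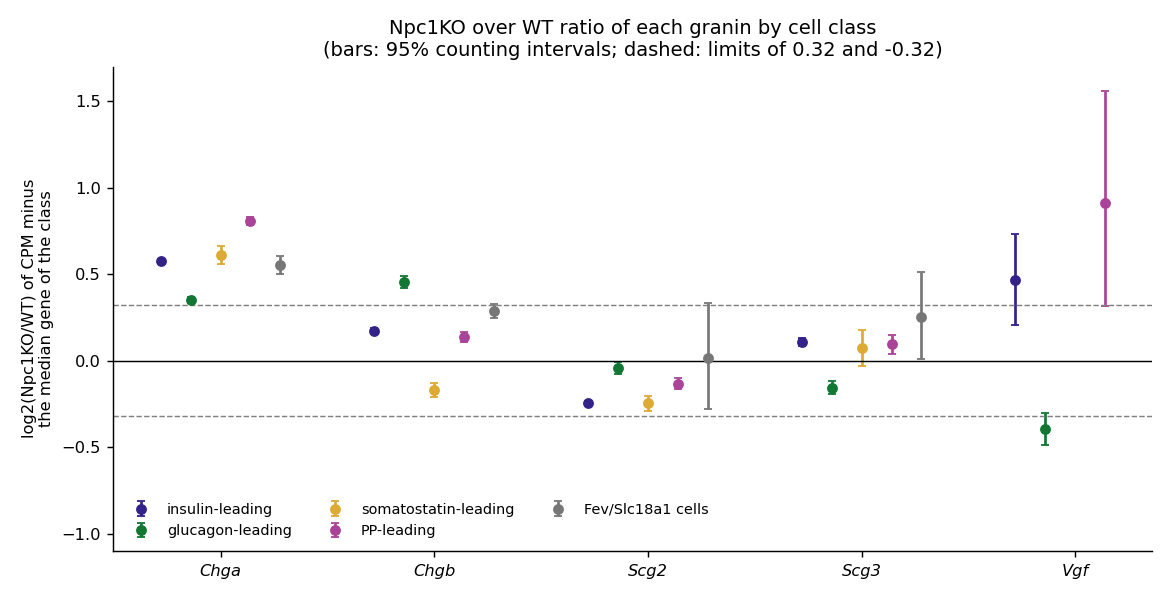
Log2 ratio of *Npc1*-/- over WT of each granin, relative to the median gene of the class, with 95% counting intervals; the dashed lines mark the limits of 0.32 and -0.32, and classes with fewer than 20 UMIs in a library are left out. All 5 *Chga* points lie above the upper line (0.35 to 0.81), the *Scg2* and *Scg3* points lie between the lines, and *Vgf* is below the lower line in glucagon-leading cells (-0.40) and above the upper line in insulin-leading and PP-leading cells. In *Fev*/*Slc18a1* cells 32.7% of all genes also lay above the upper line. *Vgf* reached 5 CPM only in *Npc1*-/- in insulin-leading and PP-leading cells.

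For *Chgb*, the summed level and that of the median cell moved apart in insulin-leading and glucagon-leading cells. By summed UMIs it lay above the limit in glucagon-leading cells, with 665 CPM in WT, 928 CPM in *Npc1*-/- and a ratio of 0.45 (0.42 to 0.49), and within it in insulin-leading (0.17), PP-leading (0.14) and *Fev*/*Slc18a1* cells (0.29, but -0.52 with the stricter cell filter of over 2000 genes and under 5% mitochondrial UMIs). The glucagon-leading call held in 9 of 14 alternatives: the ratio was 0.20 with the stricter filter, 0.19 without doublets, 0.19 as the mean over cells, and below 0 in 2 others. In somatostatin-leading cells it was -0.17 (-0.21 to -0.13), but 0.26 without the barcodes in which a second hormone took 10% of UMIs. The median somatostatin-leading cell fell more than the summed level, from 3676 to 2752 CPM, and 27.7% of *Npc1*-/- cells exceeded the median WT cell. Against the rise of the summed level, the median cell fell in glucagon-leading cells from 518 to 480 CPM and in insulin-leading cells from 700 to 682 CPM. Only 43.6% of *Npc1*-/- glucagon-leading and 48.0% of insulin-leading cells exceeded the median WT cell. By total UMIs of the cell, the glucagon-leading ratio was -0.25, -0.14 and -0.12 in the first 3 bins and 0.68 (0.63 to 0.73) in the last. By *Ppy* and *Pyy* share the glucagon-leading bins gave 1.03, 0.24, 0.56 and 0.01. Insulin-leading bins gave 0.39, -0.09, -0.04 and 0.35 by total UMIs, and 0.25, 0.33, 0.06 and -0.06 by *Ppy* and *Pyy* share.

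Cells with over 5000 CPM of *Chgb*, a limit set after the values were seen, were more frequent in the insulin-leading and glucagon-leading cells of *Npc1*-/- and less frequent in its somatostatin-leading cells. They fell from 42 of 189 (22.2%) to 9 of 141 (6.38%) somatostatin-leading cells and numbered 38 (9.25%) and 39 (8.82%) among PP-leading cells. There were 1 in WT and 9 in *Npc1*-/- among glucagon-leading cells, and those 9 held 36.9% of the *Chgb* UMIs of the class. Among insulin-leading cells there were 6 (0.327%, 0.120 to 0.711) and 29 (1.59%, 1.07 to 2.27), which held 2.55% and 18.3% of *Chgb* UMIs. Of these, the 29 *Npc1*-/- insulin-leading cells were rich in *Fev* and *Slc18a1*, at 199 CPM against 13.3 CPM in the other *Npc1*-/- insulin-leading cells. At least 3 UMIs of these genes were held by 17 of the 29 and by all 9 glucagon-leading cells of *Npc1*-/-. The same was true of only 3 of the 38 PP-leading and 0 of the 42 somatostatin-leading cells of WT. Those 42 cells had 28.4 CPM against 28.8 CPM in the rest of their class. The 9 glucagon-leading cells had a median of 40148 UMIs against 18995 in the rest, and the 29 insulin-leading cells 22257 against 30154. Scrublet scores placed 3 of the 9 and 4 of the 29 among the doublets removed in an alternative, and whether the others hold more than 1 cell was not tested.

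Without the hormone-leading cells that had at least 3 UMIs of *Fev* and *Slc18a1*, a step added after seeing the data, the *Chgb* difference of glucagon-leading cells turned round. Levels were then 630.4 CPM in WT and 566 CPM in *Npc1*-/-, a ratio of -0.17. In insulin-leading cells they were 782 and 796 CPM (-0.09), and in PP-leading cells 2035 and 1926 CPM (-0.12). In somatostatin-leading cells, which lost 1 WT and 9 *Npc1*-/- cells, they were 3878 and 3002 CPM (-0.36), past the lower limit. *Chga* kept its direction: 4539 and 7213 CPM (0.56) in insulin-leading, 3444 and 4254 CPM (0.29, under the limit) in glucagon-leading, 1863 and 2336 CPM (0.34) in somatostatin-leading and 2801 and 4640 CPM (0.68) in PP-leading cells. The step removed 10 WT and 55 *Npc1*-/- cells from the insulin-leading class and 53 and 70 from the glucagon-leading class.

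**Figure D4:**
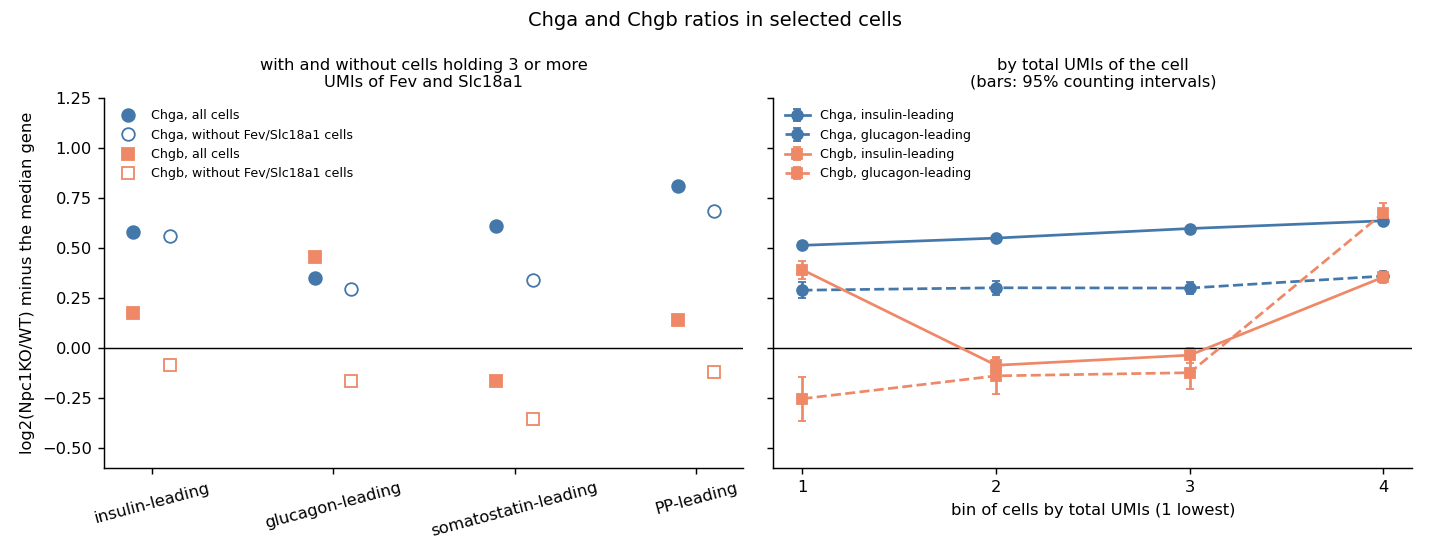
Left, log2 ratio of *Npc1*-/- over WT (relative to the median gene) of *Chga* (blue circles) and *Chgb* (orange squares) in 4 hormone classes, with all cells (filled) and without cells holding at least 3 UMIs of *Fev* and *Slc18a1* (open). Right, the same ratio in 4 bins of cells by total UMIs, with 95% counting intervals. *Chga* stays above 0 throughout, whereas the open *Chgb* squares all lie below 0 and the *Chgb* value of glucagon-leading cells is above 0 only in the last bin (0.68).

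*Scg2* was a little lower in *Npc1*-/- insulin-leading cells and *Scg3* a little higher, both within the limits in the sums of all 5 endocrine classes. In 1 of 13 alternatives *Scg2* passed the lower limit in somatostatin-leading cells (-0.34). In 2 of 14 *Scg3* passed the upper limit in *Fev*/*Slc18a1* cells (up to 0.50). The *Scg2* ratio was -0.24 (-0.26 to -0.23) in insulin-leading and -0.25 (-0.29 to -0.20) in somatostatin-leading cells, -0.13 in PP-leading, -0.04 in glucagon-leading and 0.01 (-0.28 to 0.33) in *Fev*/*Slc18a1* cells, where the stricter cell filter moved it to 3.02. In insulin-leading cells it lay between -0.33 and -0.13 in every bin by *Ppy* and *Pyy* or by total UMIs. Only the -0.33, in the lowest bin by total UMIs, was past the limit. Of *Npc1*-/- insulin-leading cells, 39.0% exceeded the median WT cell. For *Scg3* the ratio was 0.11 (0.09 to 0.13) in insulin-leading and -0.16 (-0.19 to -0.12) in glucagon-leading cells. It was 0.07 in somatostatin-leading, where the interval included 0, 0.09 in PP-leading and 0.25 in *Fev*/*Slc18a1* cells.

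*Vgf* was lower in the *Npc1*-/- cells that had most of it. In glucagon-leading cells its ratio was -0.40 (-0.49 to -0.30), where 4.58% of genes lay below the limit, and it was under 0 in all 4 bins by total UMIs (-0.59, -0.22, -0.74 and -0.52). In bins by *Ppy* and *Pyy* it was -0.55, -0.43, -0.15 and -0.18, the last 2 within the limit and with intervals that included 0. With a leading hormone of at least 30% it was -0.31, within the limit. In insulin-leading cells the ratio was 0.46 (0.20 to 0.73) and in PP-leading cells 0.91 (0.31 to 1.56; 0.30 with a leading hormone of at least 30%), both at a few CPM. *Vgf* reached 5 CPM only in *Npc1*-/- in both classes, so nothing is read from these calls. The counts that *Gcg* would bring, given above, were exceeded in insulin-leading cells of both libraries but not in WT PP-leading cells. In *Fev*/*Slc18a1* cells, 5 UMIs in each library put *Vgf* below the limit, beside 33.2% of all genes. In somatostatin-leading cells *Vgf* did not reach 5 CPM in either library.

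**Figure D5:**
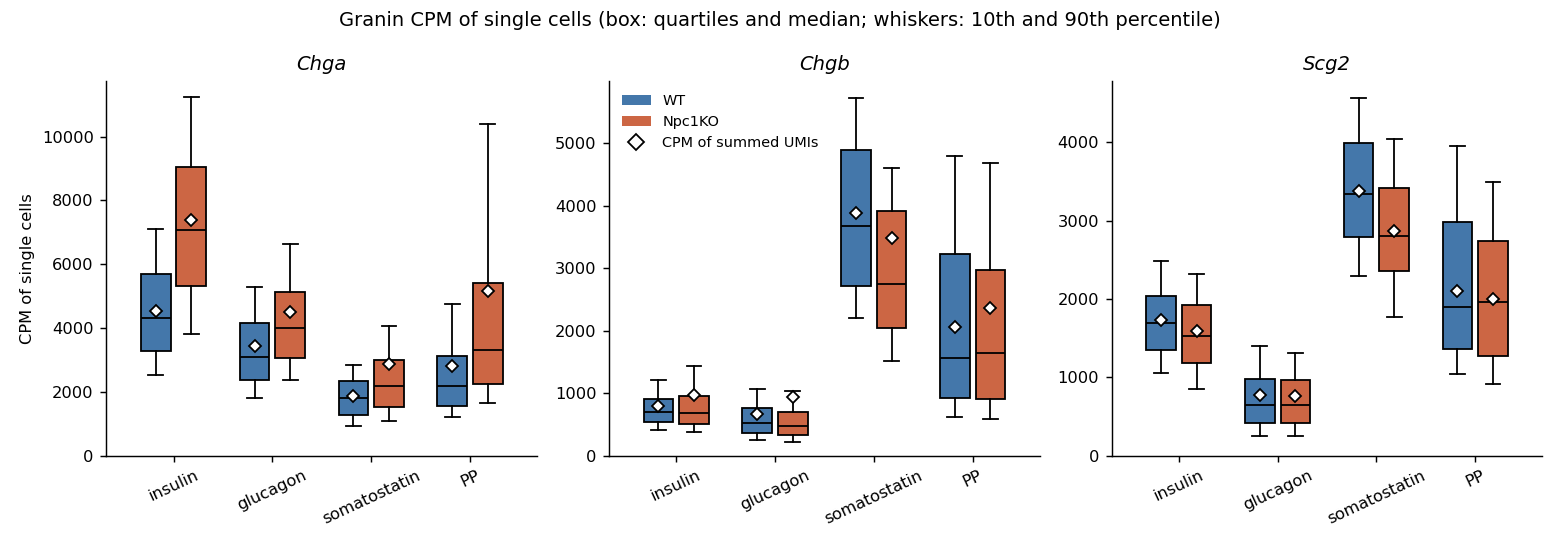
CPM of *Chga*, *Chgb* and *Scg2* in single cells of 4 hormone classes (boxes, quartiles and median; whiskers, 10th and 90th percentile; blue WT, orange *Npc1*-/-), with the CPM of the summed UMIs as white diamonds. The *Chga* box of *Npc1*-/- insulin-leading cells is higher as a whole (median 7064 against 4313 CPM), while for *Chgb* in insulin-leading and glucagon-leading *Npc1*-/- cells the diamond lies above a median that is lower than in WT.

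Outside the endocrine cells the low granin levels differed between classes. In endothelial cells *Chga* (-0.42), *Chgb* (-1.47), *Scg2* (-1.20) and *Scg3* (-0.88) lay below the limit, as did 11% of genes, while 9.18% lay above. Islet hormones were lower there too: insulin fell from 15953 to 8772.5 CPM and *Iapp* from 1374 to 808. Per 1000 insulin UMIs of these cells, *Chga* rose from 13.3 to 18.1. *Chgb* fell from 4.28 to 2.81 and *Scg2* from 5.82 to 4.64, with *Scg3* at 1.42 and 1.40. The part of background UMIs in the endothelial granin ratios was not tested. In stellate cells *Scg2* (-0.52) lay below the limit, with 16.9% of genes below and 15.2% above. The other 3 measured members were within it. *Vgf* had 2 UMIs in WT endothelial and 5 in WT stellate cells, and none in either class of *Npc1*-/-. For comparison, in PP-leading cells no granin lay below the limit and 8.91% of genes did. In somatostatin-leading cells 15.3% of genes lay below, and no granin did among the 4 that reached 5 CPM.

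Across single cells the granins had low rank correlations with each other in insulin-leading cells, which does not show that they vary independently. With each cell thinned to 3000 UMIs of non-hormone genes, Spearman's rho of *Chga* with *Chgb* was 0.12 in 1797 WT and 0.17 in 1778 *Npc1*-/- cells, and of *Chga* with *Scg2* -0.11 and -0.12. In PP-leading cells *Chgb* and *Scg2*, both high in the cells with *Sst*, had a rho of 0.45 and 0.34 (404 and 428 cells), but 0.17 in *Npc1*-/- at 1500 UMIs. The closest pair was *Chga* with *Chgb* in *Fev*/*Slc18a1* cells, with 0.94 over 12 WT and 0.66 over 100 *Npc1*-/- cells. These cells share a library, and counts this sparse pull rho towards 0, so the values are descriptions.

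Over the 14 sums of 7 classes and 2 libraries, the genes most like each granin were sought among 10335 genes, by Pearson's r of log2 CPM without hormone genes. *Scg3* followed the endocrine classes as a whole and was matched most closely by *Rundc3a* (0.999), *Syt7*, *Bicd1*, *Fbxl16* and *Unc80*. The profile of *Chga* was nearest to *Ppil6* (0.992), with *Dusp18*, *Atp6v0a1* and *Plcxd3* also among the nearest. *Atp6v0a1* encodes a subunit of the proton pump that acidifies granules and lysosomes. *Chgb* was nearest to *Ffar2* (0.988), *Slc7a4*, *Ddo*, *Rfx3* and *Dpp4*, all highest in *Fev*/*Slc18a1* cells. The *Scg2* profile was nearest to *Scn9a* (0.988), *Ush1c*, *Hsp90b1*, *Elavl4* and *Slc7a14*, highest in somatostatin-leading cells, and that of *Vgf* to *Glrb* (0.965), *Gfra3*, *Irx2*, *Ppp2r2b* and *Dcaf13*, highest in glucagon-leading cells. Among the granins, *Chga* and *Scg3* were most alike (0.95) and *Chgb* and *Vgf* least (0.26). The sums share libraries, and 2 of the 14 come from the small *Fev*/*Slc18a1* class. In its 12 WT cells *Ppil6* (19.4 CPM) and *Ddo* (38.8 CPM) rested on few UMIs.

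Other genes of the granule were counted by list in insulin-leading cells. Of 11 measured genes of granule peptide processing, 1 lay above and 2 below the limit, with a median of -0.07. *Furin*, a convertase of the trans-Golgi network, was at 13.9 and 19.4 CPM (0.36), and *Erp44* (-0.60) and *Pdia4* (-0.58), which act in disulfide formation of the endoplasmic reticulum, were lower. Of 20 genes of granule biogenesis and sorting, none lay above and 1 below (*Rab3a*, a small GTPase of granule docking, -0.33), with a median of 0.02. Of 16 granule membrane genes, 4 lay above and none below, with a median of 0.01. They were *Slc18a1*, a vesicular monoamine transporter, at 4.80 and 10.0 CPM (0.94), the calcium sensors *Syt4* (0.47) and *Syt7* (0.38), and *Ptprn2* (0.38), which encodes the granule protein phogrin. *Slc18a1* reached 5 CPM only in *Npc1*-/-, so nothing is read from its call. Over all genes tested in these cells 7.46% lay above and 6.29% below, with a median of 0 by construction.

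Of 14 measured genes that have been linked to granin transcription, 2 lay above and 3 below in insulin-leading cells. *Fev*, which also defines the class described above, had a ratio of 1.75. It reached 5 CPM only in *Npc1*-/-, so nothing is read from its call. *Sp1* lay at 13.3 and 18.8 CPM (0.38). *Atf4*, a factor of the amino acid response, was lower (-0.36), as were *Egr1* (-1.04) and *Junb* (-1.57), which also belong to the dissociation list. All 10 measured dissociation genes lay below, with a median of -1.64. Of 11 other granule peptides, *Ppy* (0.82) and *Pyy* (0.65) lay above and *Ucn3* (-0.63), *Nucb2* (-0.60) and *Gcg* (-0.52) below, with a median of -0.17.

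In glucagon-leading cells 4.12% of all genes lay above and 4.58% below. Of 12 processing genes none lay above and 1 below, and of 20 biogenesis genes none lay on either side. Of 17 granule membrane genes 1 lay above and 2 below, of 15 linked to granin transcription 1 and 2, and of 14 other granule peptides 1 and 3. All 11 dissociation genes lay below there, with a median of -1.17. In *Fev*/*Slc18a1* cells, where 32.7% of all genes lay above and 33.2% below, 9 of 17 granule membrane genes lay above and 2 below, and all 11 dissociation genes lay below.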

How the data were processed

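The deposited files were filtered matrices of UMI counts per gene and barcode, which the authors made with Cell Ranger 3.1.0 on mm10, with no further normalization. The submitters' processing notes also name Seurat 4.0.3. The kit is version 3 in the labels and version 2 in the study's methods. No annotation of cells was used, so classes were rebuilt from leading hormones and summed markers, and can differ from those of the study. Barcodes were kept by genes, UMIs, mitochondrial and haemoglobin share. Kept cells held 94096566 WT and 94392651 *Npc1*-/- UMIs. Doublets were not removed. In an alternative, Scrublet in scanpy 1.11.5 removed 28 WT barcodes (0.605%) by its own threshold, and in *Npc1*-/-, where that threshold marked none and so did not work, the 146 highest scores (3.42%).

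UMIs were summed per class and library and divided by the class total (CPM). Levels have exact Poisson intervals, shares of cells exact Clopper-Pearson intervals, and ratios exact conditional binomial intervals, all at 95%. Floors for a share of 0 used 3 counts. PCR duplicates are collapsed by UMIs, so these cover counting error only. Log2 ratios used a pseudocount of 0.5 and were set against the median gene of at least 5 CPM. A gene was counted as above or below past 1.25-fold. With 1 library per genotype no test was possible. Named genes were the 5 granins, list genes past 1.25-fold in insulin-leading cells (up to 5 per list by size), the 5 genes most like each granin, and *Npc1*. One gene named by this rule is not reported here. Likeness used log2(CPM without hormone genes + 10) and genes of at least 20 CPM in 1 sum. The members, lists and limits were chosen with earlier results of these data known. The ratio calculation was tested on simulated counts that had no variation between cells. The check of ratio size left out the *Fev*/*Slc18a1* class. Alternatives covered cell filters, doublets, class rules, scaling (edgeR 4.0.16 TMM), depth and bins. Promoter sequences were RefSeq's (GRCm38.p6) and gene positions GENCODE's. Python 3.11.15, numpy 2.4.6, scipy 1.17.1 and R 4.3.3 were used.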

Additional observations from a re-analysis of the deposited data

Results flagged for a closer look

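*Vgf* differed between classes in the direction of its log2 ratio of *Npc1*-/- over WT. The ratio was -0.40 in glucagon-leading cells, 0.46 in insulin-leading cells and 0.91 in PP-leading cells. In insulin-leading cells *Vgf* lay at 3.70 and 5.56 CPM and in PP-leading cells at 4.05 and 8.02 CPM. Both thus passed the 5 CPM filter only through *Npc1*-/-. The 33 UMIs of WT PP-leading cells did not exceed the 36.7 that *Gcg* would bring. This difference between classes was not tested, since each class had 1 library per genotype.

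Barcodes left out of the comparisons also held the *Chga* difference. Among insulin-leading barcodes with over 50000 UMIs, 153 in WT and 343 in *Npc1*-/-, *Chga* was at 3931 and 6523 CPM, a ratio of 0.66. Among those with 10% or more mitochondrial UMIs, 82 and 60 barcodes, it was at 4311 and 8955 CPM, a ratio of 0.995.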

How the results depend on the processing

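No paired analysis was possible because each genotype had 1 library. The *Chga* log2 ratio of insulin-leading cells, 0.58 in the report, kept its direction and stayed past 0.32 in all 14 alternatives. It was 0.56 with no upper limit on UMIs, 0.60 without doublets, 0.57 with a leading hormone of at least 30%, 0.56 without cells holding 3 UMIs of *Fev* and *Slc18a1*, 0.62 and 0.57 with the median gene taken over genes of at least 20 CPM or 1 UMI, and 0.59 as the mean over cells. Without centring it was 0.70 by CPM, 0.63 by totals without hormone genes and 0.56 by TMM. The endocrine classes with *Chga* past the limit numbered 4 or 5, glucagon-leading cells falling to 0.30 with the stricter cell filter and 0.29 without *Fev* and *Slc18a1* cells. This count includes the *Fev*/*Slc18a1* class, in which 32.7% of all genes lay above the limit. The *Chgb* ratio of glucagon-leading cells, 0.45, reversed to -0.17 with a leading hormone of at least 30% and to -0.17 without cells holding *Fev* and *Slc18a1*, and the cause was not tested. *Vgf* in somatostatin-leading cells, with 5 and 3 UMIs, went from -0.50 to 0.13 without barcodes of a second hormone. No somatostatin-leading cell was left at 30%, so that alternative gave no value there.

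Log2 differences between classes are given in WT, then *Npc1*-/-. With totals without hormone genes *Chga* of insulin-leading over somatostatin-leading cells became 1.97 and 1.97, *Chgb* of somatostatin-leading over insulin-leading 1.61 and 1.23, *Scg2* of somatostatin-leading over glucagon-leading 2.08 and 1.86, and *Vgf* of glucagon-leading over insulin-leading 4.44 and 3.55. *Scg3* of *Fev*/*Slc18a1* over insulin-leading cells reversed to -0.38 and -0.40. Less the endothelial level, *Chga* gave 1.39 and 1.41, *Scg2* 2.27 and 1.97, and *Chgb* in WT 2.40. With the stricter cell filter *Chga* gave 1.37 and 1.43, *Scg3* 1.17 and 0.46, and in *Npc1*-/- *Scg2* 1.84 and *Vgf* 4.37. Without doublets *Chgb* in *Npc1*-/- gave 1.90.

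At 2500 UMIs *Vgf* was found in 23.1% and 17.9% of glucagon-leading cells. At 1500 non-hormone UMIs rho of *Chga* and *Chgb* was 0.12 in *Npc1*-/- insulin-leading and 0.67 in WT *Fev*/*Slc18a1* cells. In 3 bins by *Ppy* and *Pyy* the *Chga* ratio ran from 0.51 to 0.55. At 1.5-fold, 115 genes lay above and 120 below in insulin-leading cells, against 661 and 557 at the limit used in the report, and no granin lay above. Depth limits *Vgf* outside glucagon-leading cells, and the 12 cells limit every *Fev*/*Slc18a1* value in WT. The leading results here were the insulin-leading *Chga* ratio and bins, the count of *Chga* classes, class differences, *Vgf* detection, rho and insulin-leading gene counts. Of their recomputed values, 37 stayed within the counting interval (within 1.5-fold for counts), 38 moved further, and 2, both *Scg3* between classes, reversed. Of the other values recomputed, 259 stayed within these bounds, 87 moved further, and 3 past the limit reversed, as given above. Values within the limit also changed sign: *Chgb* in *Fev*/*Slc18a1* cells down to -0.52, *Scg2* there from -0.14 to 3.02, *Scg2* in glucagon-leading cells up to 0.04, *Scg3* in PP-leading cells to -0.0045, and *Chgb* in insulin-leading (-0.09), PP-leading (-0.12) and somatostatin-leading cells (0.26).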
